A study of Mus musculus with 16 samples.

Results

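A set of 10 autosomal mouse genes of the germline was followed by symbol in the hearts of embryos at embryonic day 10.5: Rnf17, Ddx4, Tdrd1, Tdrd9, Mov10l1, Mael, Dazl, Sycp1, Hormad1 and Ctcfl. They are 10 of the 27179 genes in the count table, and all 10 were found. Rnf17 and Ctcfl are in the set because of their values in these same hearts, so their levels and fold changes are given as a description, with no test. The question for the other 8 was whether they are silent in the heart.

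RNA from 16 embryonic hearts was sequenced, 4 of each of 4 genotypes: wild-type (Ing4+/+ Ing5+/+), Ing4+/- (with Ing5+/+), Ing5-/- (with Ing4+/+) and Ing4+/- Ing5-/-. The last genotype has lost 3 of the 4 alleles of Ing4 and Ing5, which encode chromatin readers in histone acetyltransferase complexes. The embryos came from 7 litters. Nothing in the labels gives strain, sex, the design of the mutant alleles, or a Cre or transgene. Libraries held 19753100 to 35664331 counted reads. Levels are read counts scaled to library size (CPM) and, to compare one gene with another, CPM per kilobase of gene length (RPKM).

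Germ cells use a set of proteins that other cells lack. In the piRNA pathway, small RNAs guide Piwi proteins to silence transposons, and the RNA helicases and Tudor-domain proteins of this pathway gather in germ granules (nuage). In meiosis, the synaptonemal complex and HORMA-domain proteins hold and survey paired chromosomes. In somatic tissue many of these genes carry CpG-rich promoters that are kept off by DNA methylation and by a non-canonical Polycomb complex in which MGA and MAX, which bind the E-box, and E2F6, which binds E2F-type sites, recruit the repressive subunits.

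The promoter sequence is shown first because the genes share E-boxes there. A promoter window of 300 bases (250 before and 50 after the start site, RefSeq, GRCm38.p6) was on hand for 8 of the genes, not for Rnf17 and Ctcfl. The E-box CACGTG, which reads the same on both strands, stood in a window of 7 of these 8 genes (87.5%), against 8.09% of 27025 genes with a window. The exception was Dazl. The E2F-type motif GGCGGGAA, on either strand, stood in the windows of 2 genes, Ddx4 and Hormad1, against 2.52% of all genes with a window. Each match is a description of these letters and not evidence of binding. The sites below, 5′ to 3′ on the gene's strand, have the motif in capitals with its flanks in lower case.
Ddx4, E-box, chr13:112652322-112652351, minus strand: ggcgtccgcccgCACGTGcagccgtttaag
Ddx4, E2F-type, chr13:112652429-112652458, minus strand: tccgtccatggGGCGGGAAgtcgcgcgccg
Tdrd1, E-box, chr19:56826186-56826215, plus strand: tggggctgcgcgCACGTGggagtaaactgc
Tdrd9, E-box, chr12:111971452-111971481, plus strand: gcacgaggctccCACGTGcatgcagggcct
Mael, E-box, chr1:166238950-166238979, minus strand: taccaggcctacCACGTGacaatccccgcc
Sycp1, E-box, chr3:102936177-102936206, minus strand: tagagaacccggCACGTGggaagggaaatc
Mov10l1, E-box, chr15:88982744-88982765, plus strand: ccttCACGTGctaaccgccaac

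Hormad1 is shown over all 250 bases before its start site, since it was the only one of the 8 with 2 E-boxes and an E2F-type motif, all in capitals.
Hormad1, chr3:95559427-95559676, plus strand: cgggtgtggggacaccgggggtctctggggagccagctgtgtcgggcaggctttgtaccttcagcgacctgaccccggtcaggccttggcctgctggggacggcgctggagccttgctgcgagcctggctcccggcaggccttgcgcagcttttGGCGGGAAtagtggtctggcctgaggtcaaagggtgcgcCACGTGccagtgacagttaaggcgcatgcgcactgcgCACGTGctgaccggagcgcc
The E-boxes of Hormad1 begin 57 and 20 bases before the start site and its E2F-type motif 96 bases before. In Ddx4 these distances were 29 bases for the E-box and 137 bases for the E2F-type motif. The E-box began 11 bases before the first start site in Tdrd1, 94 in Sycp1, 223 in Mael and 246 in Mov10l1. Tdrd9 had E-boxes at 165 and at 95 bases.

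The windows of the 8 genes were also rich in CpG. In the first window of each gene the median ratio of observed to expected CpG was 0.756, against 0.389 over all genes, and the median GC content was 64.2% against 52.7%. Among these first windows Ddx4 had the most CpG, 38 in 300 bases, and Tdrd9 the fewest, 10. In other lists, an E-box was found in 3 of 15 piRNA and germ granule genes with a window and in 5 of 25 meiosis genes. It was found in 2 of 9 oocyte genes and in 5 of 11 other genes listed for promoter silencing (45.5%). That last list holds Dazap1, which is not silent here (75.4 RPKM) and is also counted among the somatic relatives. No window of 4 primordial germ cell and pluripotency genes, none of 12 spermatid genes and none of 9 cardiomyocyte genes held an E-box. Their median CpG ratios were low, at 0.283, 0.17 and 0.232. Among CpG-rich lists, 4 of 23 silencing genes (ratio 0.863) and 1 of 8 somatic relatives of the members (ratio 0.944) had an E-box. The E2F-type motif stood in 6 of 25 meiosis genes and in 4 of the 11 other genes listed for promoter silencing.

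The silencing apparatus itself was expressed and showed no called change. Of 26 genes for DNA methylation, the Polycomb complex and related repressors, 25 could be tested. None was called in any of the 6 comparisons by edgeR's quasi-likelihood test with Benjamini-Hochberg adjustment, and the median log2 fold change of Ing4+/- Ing5-/- against wild-type was -0.01, against 0.00 over all genes. DESeq2 called 0 of them there too. At an unadjusted p under 0.05 the number was 1 of 25 in that comparison, Setdb1, a histone H3 methyltransferase (log2 fold change 0.27 ± 0.09, SE, adjusted p = 0.238). Dnmt1, the maintenance methyltransferase, had 299.8 to 315.1 CPM in the 4 wild-type hearts and 278.3 to 321.8 CPM in the 4 Ing4+/- Ing5-/- hearts. E2f6 was at 101.9 ± 3.35 and 93.7 ± 5.95 CPM (SD, n = 4), and these groups did not overlap, with a log2 fold change of -0.12 ± 0.08 (SE, adjusted p = 0.581). Mga was at 104.0 ± 8.90 and 104.6 ± 8.56 CPM in these genotypes (SD, n = 4).

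Before the members' values, the labels were checked on the targeted genes. The mean of Ing5 was 33.5 CPM for the wild-type and 37.2 CPM for the Ing4+/- genotype. It was 23.5 CPM for Ing5-/- and 21.0 CPM for Ing4+/- Ing5-/-, with SDs of 2.75 to 4.48 CPM over the 4 genotypes (n = 4). Reads of Ing5 therefore remained in the labelled knockouts. Ing4 had a mean of 39.5 ± 7.60 CPM for the wild-type genotype and 51.0 ± 7.31 CPM for Ing5-/-. With an Ing4 allele lost, it was 34.1 ± 1.85 CPM (Ing5+/+) and 34.3 ± 1.90 CPM (Ing5-/-). Its wild-type and Ing4+/- values overlapped, so with Ing5+/+ Ing4 gave no clear check of that label. Without Ing5 the groups did not overlap, at 43.5 to 60.7 CPM for Ing5-/- and 32.48 to 36.15 CPM for Ing4+/- Ing5-/-. The log2 fold change between these 2 genotypes was -0.57 ± 0.12 (SE, edgeR, adjusted p = 0.348), not past the threshold. Of the cardiac markers, 9 of 9 were measured, at a summed 18940 to 32760 CPM. Xist was at 372.1 to 595.4 CPM in wild-type 2 and 4, Ing4+/- 3, Ing5-/- 4 and Ing4+/- Ing5-/- 2. In these hearts Y-linked genes summed to only 0.0287 to 0.166 CPM. Levels of these sex-linked genes were thus not balanced over the genotypes. Libraries that stood apart were Ing5-/- 1, with the lowest cardiac sum, Ing4+/- Ing5-/- 2, with the highest haemoglobin sum (47960 CPM), and Ing4+/- 4, in which Xist was read beside Y-linked genes (199.5 CPM). The main results on the members are given with and without them.

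The 10 genes spanned a wide range of levels, and they were not uniformly silent. In order of mean RPKM over 16 hearts they were Mov10l1 (12.7), Rnf17 (2.20), Ddx4 (1.94), Tdrd1 (0.617), Ctcfl (0.402), Tdrd9 (0.216), Mael (0.185), Hormad1 (0.154), Dazl (0.0870) and Sycp1 (0.0303). Over the hearts, the ranges of Rnf17 (1.08 to 4.27 RPKM) and Ddx4 (0.788 to 4.28 RPKM) overlapped almost wholly, as did those of Tdrd9 (0.102 to 0.426) and Mael (0 to 0.505). Mov10l1, at 6.79 to 14.6 RPKM, lay above every other member in every heart. Among all 27179 genes, Mov10l1 stood at percentile 77.3, Rnf17 at 58.0, Tdrd1 at 50.0 and Sycp1 at 33.0.

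As a yardstick of silence, 1104 olfactory receptor genes were read, of which 1034 had no read in any heart. Their highest mean was 0.135 RPKM and their 99th percentile 0.0226 RPKM. Of the 10 genes, 8 had a mean above the highest olfactory receptor gene, and Dazl and Sycp1 lay below it but above the 99th percentile. These means pool the genotypes. In wild-type hearts alone 6 of the 10 were above 0.135 RPKM, and Dazl (0.128), Mael (0.0976), Sycp1 (0.0315) and Hormad1 (0.0169) were below. Hormad1 was thus below that 99th percentile in wild-type hearts, and its mean in Ing4+/- Ing5-/- hearts was 0.410 RPKM. Against the highest olfactory receptor gene of the wild-type hearts themselves (0.102 RPKM) 7 were above. The same count within each other genotype was 4 in Ing4+/- (0.277 RPKM), 6 in Ing5-/- (0.186 RPKM) and 8 in Ing4+/- Ing5-/- hearts (0.17 RPKM). Reads in every heart were found for 5 genes: Rnf17, Ddx4, Tdrd1, Tdrd9 and Mov10l1. These 5 also had at least 10 reads in every heart. Dazl and Ctcfl lacked reads in 1 heart each, Mael in 2, Hormad1 in 5 and Sycp1 in 6. A count of 0 allows up to 3 reads, which is 0.0861 to 0.153 CPM in these libraries, for counting error only.

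**Figure D1:**
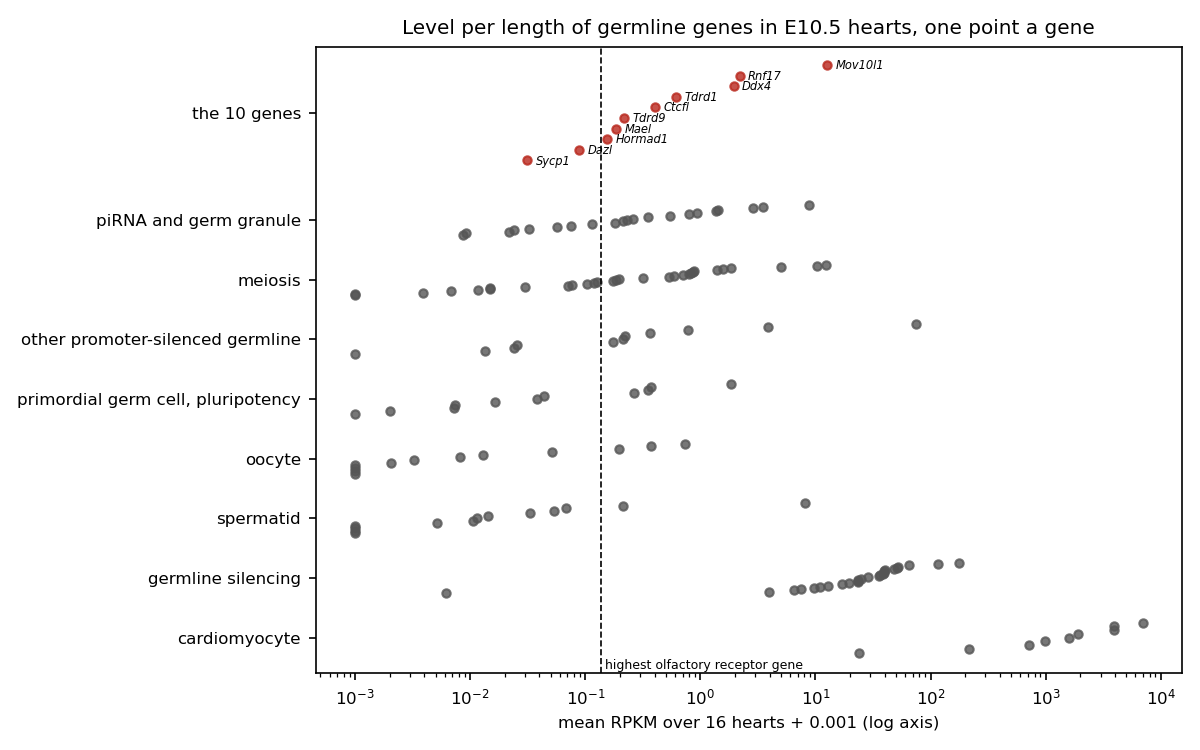
Mean RPKM over 16 hearts on a log axis (0.001 added), 1 point per gene, for the 10 germline genes (red, named) and for other germline, silencing and cardiomyocyte genes (grey). The dashed line is the highest of 1104 olfactory receptor genes, 0.135 RPKM, with 8 of the 10 genes above it and Dazl and Sycp1 below. The means pool 4 genotypes, and in wild-type hearts alone 6 genes were above 0.135 RPKM.

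Of 11 primordial germ cell and pluripotency genes, 7 were below the highest olfactory receptor gene and 4 were above it, Dnd1 (1.83 RPKM), Sox2 (0.368), Nanos3 (0.351) and Nanog (0.266). Pou5f1, a pluripotency factor of primordial germ cells, had 0 reads in all 16 hearts, Dppa3 had 2 and Prdm14 had 8. The summed level of the 11 genes was 3.12 to 5.10 CPM in every heart, and it averaged 4.57 ± 0.44 CPM over wild-type hearts and 4.02 ± 0.40 CPM over Ing4+/- Ing5-/- hearts (SD, n = 4). Of these 11 genes, Dnd1, an RNA-binding protein, contributed most, with 1143 reads. Of these 11 genes 4 were tested and 0 were called. Of 10 gonad and mesonephros genes, 4 were tested and none was called in Ing4+/- Ing5-/- against wild-type. Leaving out Gata4 and Sox9, which the heart itself expresses, they summed to 9.83 to 11.1 CPM in wild-type hearts and to 3.53 to 6.17 CPM in Ing4+/- Ing5-/- hearts. Most of this sum was 1 gene, Lhx9, with means of 9.3 and 4.2 CPM in these genotypes (log2 fold change -1.15 ± 0.33, SE, edgeR, adjusted p = 0.13). The sums therefore describe mainly Lhx9 and not the list. Of 8 somatic relatives of the members, all were tested, 0 were called in Ing4+/- Ing5-/- against wild-type, and the median log2 fold change was -0.02.

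Of the 10 genes, 8 passed the filter on low counts and could be tested among 15785 genes. Sycp1 and Hormad1 did not. Mael and Dazl passed only with the Ing4+/- Ing5-/- hearts included. Setting aside Rnf17 and Ctcfl, 6 members were tested, and Ddx4 was the 1 member called in Ing4+/- Ing5-/- against wild-type hearts, where 0.843% of all genes were called (133 of 15785). That count of all genes ran from 39, without wild-type 3 or 4, to 318, without Ing5-/- 1, when single libraries were left out. Of the 6 members 2 had an unadjusted p under 0.05, with 11.7% of all genes. In Ing4+/- Ing5-/- against Ing4+/- hearts 0 of the 6 were called, with 1.10% of all genes called (DESeq2 called Ddx4), and 2 of the 6 had an unadjusted p under 0.05, with 14.1% of all genes. In Ing4+/- Ing5-/- against Ing5-/- hearts 0 of 6 were called, with 0.00634% of all genes called, and again 2 had an unadjusted p under 0.05, with 6.7% of all genes. In Ing5-/- against wild-type hearts 0 of 6 were called and 0% of all genes (43 genes by DESeq2), with 0 members and 9.8% of all genes under an unadjusted p of 0.05. In Ing4+/- against wild-type hearts 0 of 6 were called and 0% of all genes (3 by DESeq2), with 1 member, Dazl, and 4.7% of all genes under an unadjusted p of 0.05. The interaction of the genotypes gave 0 of 6 called and 0% of all genes (7 by DESeq2), with 0 members and 6.0% of all genes under an unadjusted p of 0.05. The comparisons share groups, so they are not independent of each other. Each p-value rests on 1 estimate of the spread per gene, pooled over the hearts of all 4 genotypes. Some hearts of a genotype came from the same litter.

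**Figure D2:**
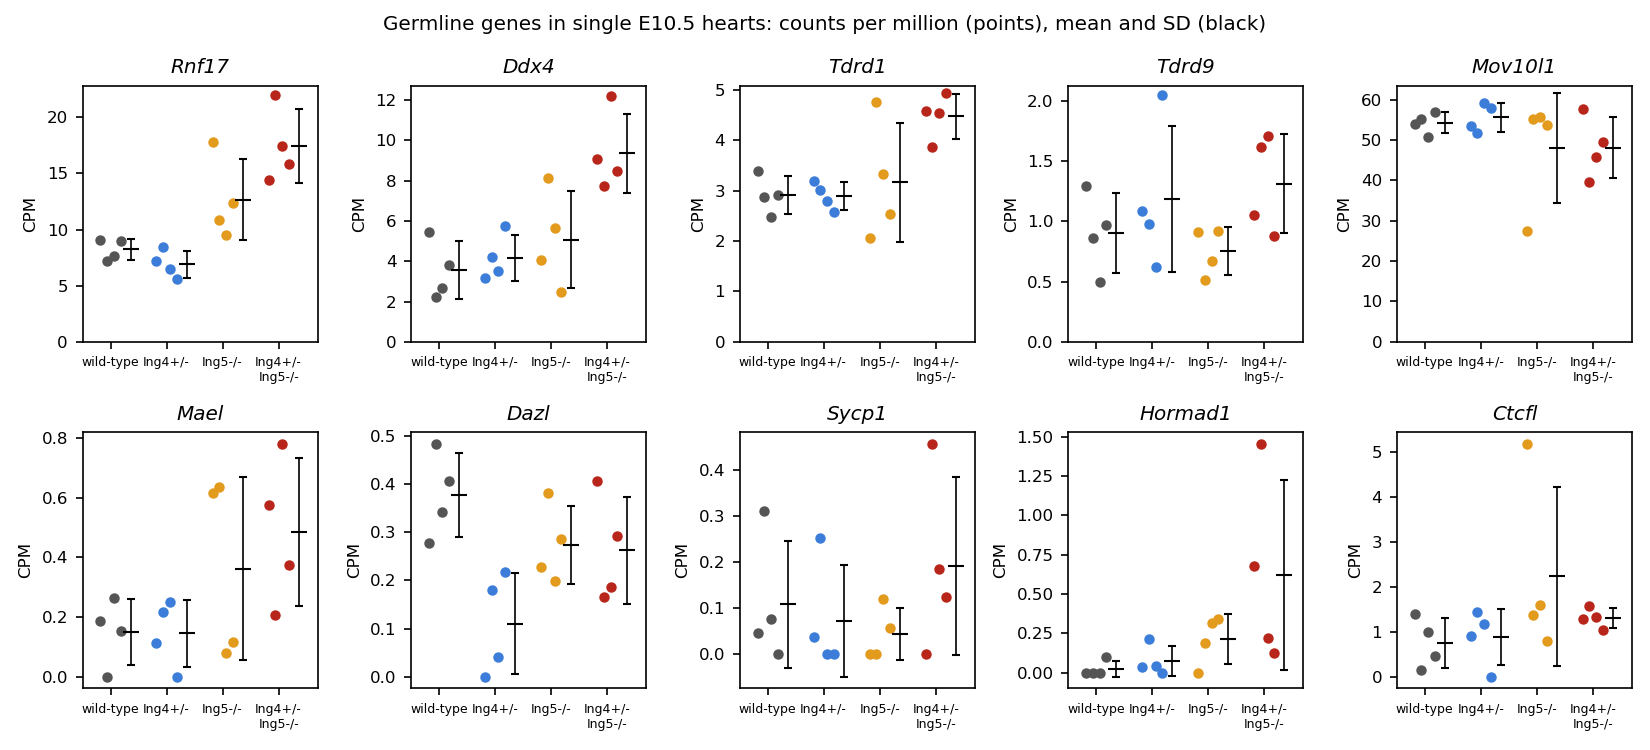
CPM of the 10 genes in 16 hearts, 1 point per heart in replicate order, grouped by genotype, with the mean and SD in black. The Ing4+/- Ing5-/- hearts lie above all wild-type hearts for Ddx4 and Tdrd1, and for Rnf17, which was chosen for its values. For Hormad1 the lowest of them (0.125 CPM, 3 reads) and wild-type 4 (0.102 CPM, 2 reads) differ by no more than counting error. Mov10l1, Tdrd9, Mael, Dazl, Sycp1 and Ctcfl overlap between these genotypes. The share of all genes without overlap was not counted.

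Rnf17 encodes a Tudor-domain protein of a germ granule in male germ cells (chromosome 14, 56402650 to 56525032). Its level was 9.09, 7.18, 7.66 and 9.01 CPM in the wild-type hearts, and 14.4, 22.0, 17.4 and 15.9 CPM in the Ing4+/- Ing5-/- hearts. It was 7.18, 8.43, 6.50 and 5.58 CPM in the Ing4+/- group, and 17.8, 10.9, 9.56 and 12.4 CPM in Ing5-/- hearts. All hearts without Ing5 lay above all wild-type hearts, and Ing4+/- overlapped wild-type. The fitted log2 fold changes were 1.08 for Ing4+/- Ing5-/- against wild-type, 1.33 against Ing4+/-, 0.62 for Ing5-/- against wild-type and -0.25 for Ing4+/- against wild-type. Without the 3 libraries that stood apart the first 3 values were 0.95, 1.10 and 0.41, and leaving out Ing5-/- 1 alone moved the third to 0.42. With litter as a block the third was 0.96. Within litters, the Ing4+/- Ing5-/- heart had 2.42 times the Rnf17 of its wild-type littermate in litter 4 and 1.93 times in litter 6.

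Ctcfl (BORIS), a germ cell relative of the insulator protein CTCF, was chosen because its level varied (chromosome 2, 173093609 to 173119525). Wild-type hearts had 1.39, 0.138, 0.986 and 0.458 CPM, and Ing4+/- hearts 0.902, 1.45, 1.17 and 0 CPM. The Ing5-/- hearts had 5.17, 1.37, 1.59 and 0.804 CPM, and the Ing4+/- Ing5-/- hearts 1.29, 1.58, 1.34 and 1.04 CPM. The genotypes overlapped in every comparison, and Ing5-/- 1 was far above all other hearts, with 159 reads. The log2 fold change of Ing5-/- against wild-type was 1.60 and was 0.76 without that heart. Ctcflos, whose span starts 5224 bases away, was also highest in a single Ing5-/- heart (1.40 CPM), with a range of 0 to 0.664 CPM in Ing4+/- Ing5-/- hearts.

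Ddx4 (Vasa), the DEAD-box RNA helicase at the core of germ granules, had the same direction (chromosome 13, 112598333 to 112652633). It was 5.47, 2.24, 2.69 and 3.82 CPM in wild-type hearts and 9.05, 7.72, 12.2 and 8.47 CPM in Ing4+/- Ing5-/- hearts. In Ing4+/- hearts it was 3.16, 4.20, 3.50 and 5.75 CPM, and in Ing5-/- hearts 4.07, 8.13, 5.63 and 2.47 CPM. All 4 Ing4+/- Ing5-/- hearts lay above every wild-type and every Ing4+/- heart, and Ing5-/- 2 lay within their range. Ddx4 rose in Ing4+/- Ing5-/- against wild-type, with a log2 fold change of 1.41 ± 0.32 (SE, adjusted p = 0.0471). Against Ing4+/- the log2 fold change was 1.18 ± 0.32 (adjusted p = 0.0851) and against Ing5-/- it was 0.89 ± 0.31 (adjusted p = 0.639).

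The call for Ddx4 was marginal. With litter as a block it was lost, with a log2 fold change of 0.90 ± 0.42 (SE, adjusted p = 0.637), and with the replicate number as a block the adjusted p was 0.0932. Leaving out single libraries, the call was kept in 6 of 16 cases, without Ing4+/- 4, any of the 4 Ing5-/- hearts or wild-type 1, and the adjusted p ranged from 0.0201 to 0.182. It was kept without the 3 libraries that stood apart (1.49, adjusted p = 0.0323). The sign was positive in all 27 alternatives, which all refit these hearts or a part of them. Leaving out a single library could not reverse it, since every Ing4+/- Ing5-/- heart lay above every wild-type heart. Within litters the Ing4+/- Ing5-/- heart had 1.41 times the Ddx4 of its wild-type littermate in litter 4 and 3.19 times in litter 6, and 1.84, 3.48 and 1.47 times that of its Ing4+/- littermate in litters 4, 6 and 7.

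Tdrd1, a Tudor-domain scaffold that binds Piwi proteins, showed a smaller difference (chromosome 19, 56826171 to 56870012). The 4 wild-type hearts had 3.39, 2.87, 2.46 and 2.90 CPM, and the 4 Ing4+/- Ing5-/- hearts 4.58, 3.86, 4.53 and 4.92 CPM. Ing4+/- hearts had 3.19, 3.00, 2.79 and 2.57 CPM, and Ing5-/- hearts 2.05, 4.75, 3.33 and 2.53 CPM. The Ing4+/- Ing5-/- hearts did not overlap with the wild-type or Ing4+/- hearts but did overlap with Ing5-/-, and the log2 fold changes were 0.62 ± 0.22 against wild-type (SE, adjusted p = 0.260) and 0.63 ± 0.22 against Ing4+/- (SE, adjusted p = 0.199), neither past the threshold. Tdrd9, a Tudor-domain RNA helicase, overlapped between all genotypes at 0.493 to 2.05 CPM (chromosome 12, 111971488 to 112068854). Its log2 fold change against wild-type was 0.54 ± 0.40 (SE, adjusted p = 0.656).

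Mov10l1 is the RNA helicase that feeds precursors into piRNA production, and its gene is also known for a short heart transcript, named CHAMP or Csm (chromosome 15, 88982891 to 89055152). It was the highest member, at 54.1, 55.2, 50.8 and 57.0 CPM in wild-type hearts and 57.7, 39.6, 45.8 and 49.5 CPM in Ing4+/- Ing5-/- hearts. The 4 genotypes overlapped, and the log2 fold change was -0.17 ± 0.16 (SE, adjusted p = 0.744). Its lowest heart was Ing5-/- 1 (27.5 CPM), the heart with the lowest cardiac marker sum. Counts per gene do not separate the long transcript from the short one.

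Mael, a germ granule protein of piRNA-directed silencing, was read at 0 to 0.780 CPM (chromosome 1, 166201385 to 166238744). Wild-type hearts had 0.186, 0, 0.265 and 0.153 CPM, and Ing4+/- Ing5-/- hearts had 0.576, 0.207, 0.780 and 0.376 CPM, with overlap between the genotypes. Its log2 fold change was 1.70 ± 0.83 (SE, adjusted p = 0.449), and against Ing4+/- it was 1.70 ± 0.82 (adjusted p = 0.362). Dazl, an RNA-binding protein of the germ cell lineage, was at 0.278, 0.483, 0.341 and 0.407 CPM in wild-type hearts and 0, 0.181, 0.0417 and 0.218 CPM in Ing4+/- hearts (chromosome 17, 50279393 to 50293620). These groups did not overlap, but each heart had 0 to 14 reads, and the log2 fold change of -1.75 ± 0.64 had an adjusted p of 0.956 (edgeR).

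Sycp1, the transverse filament of the synaptonemal complex, had 44 reads in 16 hearts, at most 11 in a heart (chromosome 3, 102818499 to 102936100). Hormad1, a HORMA-domain protein of unsynapsed chromosomes, had 100 reads (chromosome 3, 95559677 to 95587863), of which 64 were in the Ing4+/- Ing5-/- hearts (20, 35, 6 and 3), 26 in Ing5-/-, 8 in Ing4+/- and 2 in wild-type hearts. Ing4+/- Ing5-/- 2, a library that stood apart, held 35 of the 64. The ratio of summed reads per library size of Ing4+/- Ing5-/- to wild-type was 29.6 (exact 95% interval 7.86 to 249), which covers counting error only and takes no account of the spread between hearts. Without Ing4+/- Ing5-/- 2 the ratio was 17.4 (4.41 to 151), and both wild-type reads came from wild-type 4. Without the filter on low counts, the log2 fold change of Hormad1 was 4.56 ± 1.27 (SE, edgeR, adjusted p = 0.127). It was 3.71 ± 1.35 without Ing4+/- Ing5-/- 2 (adjusted p = 0.475) and 3.75 ± 1.10 without the 3 libraries (adjusted p = 0.096).

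**Figure D3:**
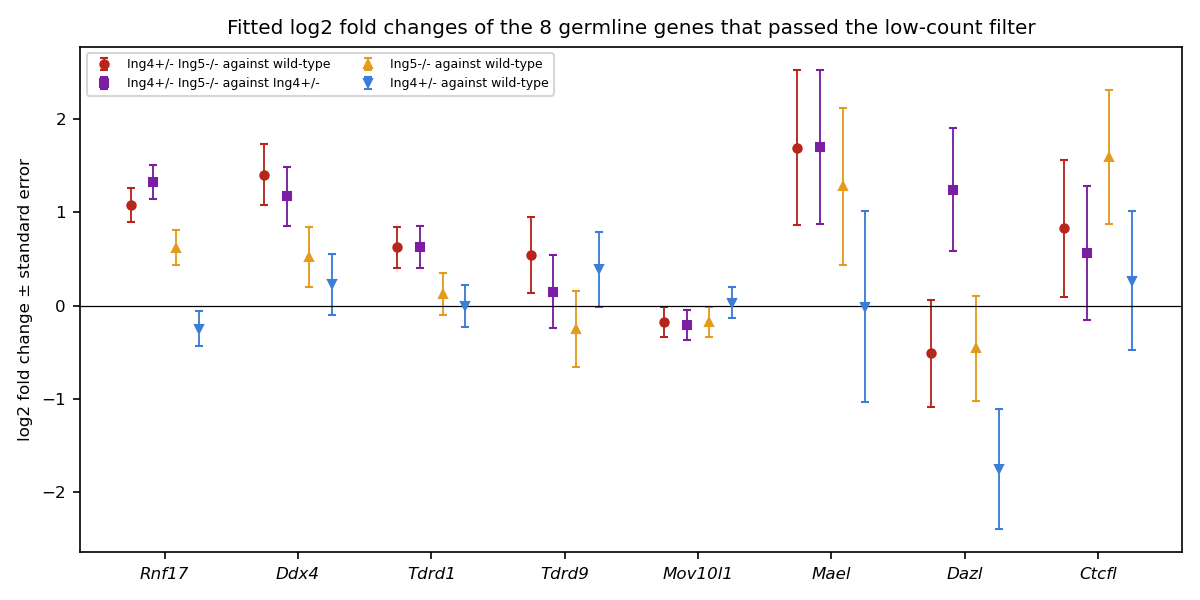
Fitted log2 fold change with its standard error for the 8 tested genes in 4 comparisons between genotypes. Ddx4 in Ing4+/- Ing5-/- against wild-type (1.41 ± 0.32) was the 1 value called among the 6 genes tested, and Mov10l1 lies near 0 in every comparison shown.

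Other germline genes were read from lists chosen with earlier results of these data known. Among 21 piRNA and germ granule genes, 13 were tested and 0 were called in Ing4+/- Ing5-/- against wild-type. The median log2 fold change was 0.41, against 0.00 over all genes tested, 10 of 13 were positive beside 50.8% of all genes, and 6 had an unadjusted p under 0.05, all 6 positive, beside 11.7%. The filter favours genes high in some genotype, so these counts only describe the tested genes. At the upper end were Gpat2, which acts in piRNA biogenesis (1.75 ± 0.57, SE, adjusted p = 0.202), Piwil2, a Piwi protein (1.17 ± 0.53, adjusted p = 0.398), and Fkbp6, a cochaperone of Piwi loading (2.46 ± 0.95, adjusted p = 0.304), which passed the filter only with the Ing4+/- Ing5-/- hearts. At the lower end were Gtsf1, a zinc finger partner of Piwi proteins (-0.86 ± 0.49, adjusted p = 0.527), Mybl1, a transcription factor of piRNA genes (-0.34 ± 0.20, adjusted p = 0.556), and Pld6, an enzyme of piRNA production (-0.21 ± 0.29, adjusted p = 0.838). Against Ing4+/- the median was 0.18, and 3 of 13 had an unadjusted p under 0.05, beside 14.1% of all genes.

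Of 30 meiosis genes matched, 19 were tested, and 1 rose in Ing4+/- Ing5-/- against wild-type. This was Iho1, which binds HORMAD1 on meiotic chromosome axes. Wild-type hearts had 1.62, 1.45, 1.63 and 2.14 CPM, and Ing4+/- Ing5-/- hearts had 2.75, 4.73, 3.46 and 3.46 CPM. The log2 fold change was 1.07 ± 0.23 (SE, adjusted p = 0.0348), and the adjusted p was 0.413 with litter as a block and 0.0608 with the replicate block. The call was also lost without Ing4+/- Ing5-/- 2 (adjusted p = 0.16), 3 or 4, or without any single wild-type heart. DESeq2 called 3 of the 19. The median over the 19 genes was 0.43, against 0.00 over all genes tested. Of the 19, 15 were positive beside 50.8% of all genes, and 7 had an unadjusted p under 0.05 beside 11.7%. The 1 call stands beside 0.843% of all genes called. The filter favours genes high in some genotype, so these counts only describe the tested genes. At the lower end was Mei4 (-1.235 ± 0.692, SE, adjusted p = 0.521). Syce1, a part of the synaptonemal complex, had a log2 fold change of 2.79 ± 0.68 (SE, adjusted p = 0.0669). It was called in 3 alternatives, 1 of them without the 3 libraries that stood apart (2.96, adjusted p = 0.0172), and not called in 7. Of the fits without a single library, 2 called it and 14 did not.

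Of 11 other genes listed for promoter silencing outside the germline, 6 were tested and none was called in Ing4+/- Ing5-/- against wild-type. All 6 had a positive log2 fold change, beside 50.8% of all genes, with a median of 0.95, and 4 had an unadjusted p under 0.05, beside 11.7%. The filter favours genes high in some genotype, and Tex19.1 is 1 of these 4, so the counts only describe the tested genes. One of them, Dazap1, was at 75.4 RPKM, is not silent here and is also counted among the somatic relatives. Without Dazap1 the median over the other 5, Tex19.1 among them, was 1.38. Tex19.1, which acts on transposons in germ cells and passed the filter only with the Ing4+/- Ing5-/- hearts, had 1.87 ± 0.64 (SE, adjusted p = 0.236), and Zcwpw1, a histone reader in meiosis, had 0.52 ± 0.15 (adjusted p = 0.132). DESeq2 called 1 of the 6. By comparison 12 of 13 spermatid genes and 9 of 12 oocyte genes did not pass the filter, with medians of 0.0104 and 0.00473 RPKM. Of the 3 oocyte genes tested, 1 was called, Sohlh2, a transcription factor of germ cell differentiation. Sohlh2 passed the filter only with the Ing4+/- Ing5-/- hearts, where it is high, so its call describes this gene and says nothing of the list. Wild-type hearts had 0.186, 0.138, 0 and 0.0509 CPM, from 0 to 4 reads each, and Ing4+/- Ing5-/- hearts had 0.712, 0.955, 1.71 and 0.960 CPM (edgeR, adjusted p = 0.0124). The call for Sohlh2 was lost when litter was a block (adjusted p = 0.435) and without wild-type 4 (adjusted p = 0.0653).

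Macrophage markers also differed between the genotypes. The sum of 12 macrophage genes ranged from 13.5 to 19.3 CPM over wild-type hearts and from 18.8 to 24.4 CPM over Ing4+/- hearts. It ranged from 22.7 to 68.2 CPM over Ing5-/- hearts and from 45.9 to 74.7 CPM over Ing4+/- Ing5-/- hearts. Of the 12, 7 rose in Ing4+/- Ing5-/- against wild-type, and all 12 had a positive log2 fold change. Laptm5, a lysosomal protein of blood cells, had the smallest of the 12 log2 fold changes, 1.32 ± 0.19 (SE, edgeR, adjusted p = 0.00253), at 7.42 ± 1.36 and 18.6 ± 2.49 CPM (SD, n = 4). With litter as a block 1 of the 12 was called, and 2 by limma-voom, while DESeq2 called 11 and a fit on only these groups called 12. Without the 3 libraries that stood apart it was 9. Over single libraries left out the number ran from 2 to 10. It was 2 without wild-type 3 or wild-type 4, 3 without wild-type 1, Ing4+/- Ing5-/- 2 or Ing4+/- Ing5-/- 3, and 4 without Ing4+/- Ing5-/- 4. In Ing5-/- hearts 1 and 2, with 68.2 and 58.0 CPM of these markers, Mael had 0.618 and 0.638 CPM. It had 0.0793 and 0.115 CPM in Ing5-/- hearts 3 and 4, with 22.7 and 23.9 CPM of the markers. Hearts 1 and 2 were both from litter 1, heart 3 from litter 2 and heart 4 from litter 7. Litter and marker sum are therefore not separate in these hearts, and Ing5-/- 1 is a library that stood apart. In the same 4 hearts Ddx4 was 4.07 and 8.13 against 5.63 and 2.47 CPM, and Hormad1 had 0 and 6 reads against 8 and 12. Rnf17 was 17.8 and 10.9 against 9.56 and 12.4 CPM, and Tdrd1 was 2.05 and 4.75 against 3.33 and 2.53 CPM. Of the other marker lists in the same comparison, haemoglobin and epicardial genes had 0 called. Of 6 haemoglobin genes all 6 had a positive log2 fold change (median 1.09), with sums of 8771 to 11650 CPM in wild-type and 7684 to 47960 CPM in Ing4+/- Ing5-/- hearts. Of 5 epicardial genes none had (median -0.46), with sums of 404.1 to 445.2 and 258 to 347.4 CPM. The part of these cell types in the members' levels was not tested, and in whole hearts more cells of a type and more RNA per cell cannot be told apart.

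**Figure D4:**
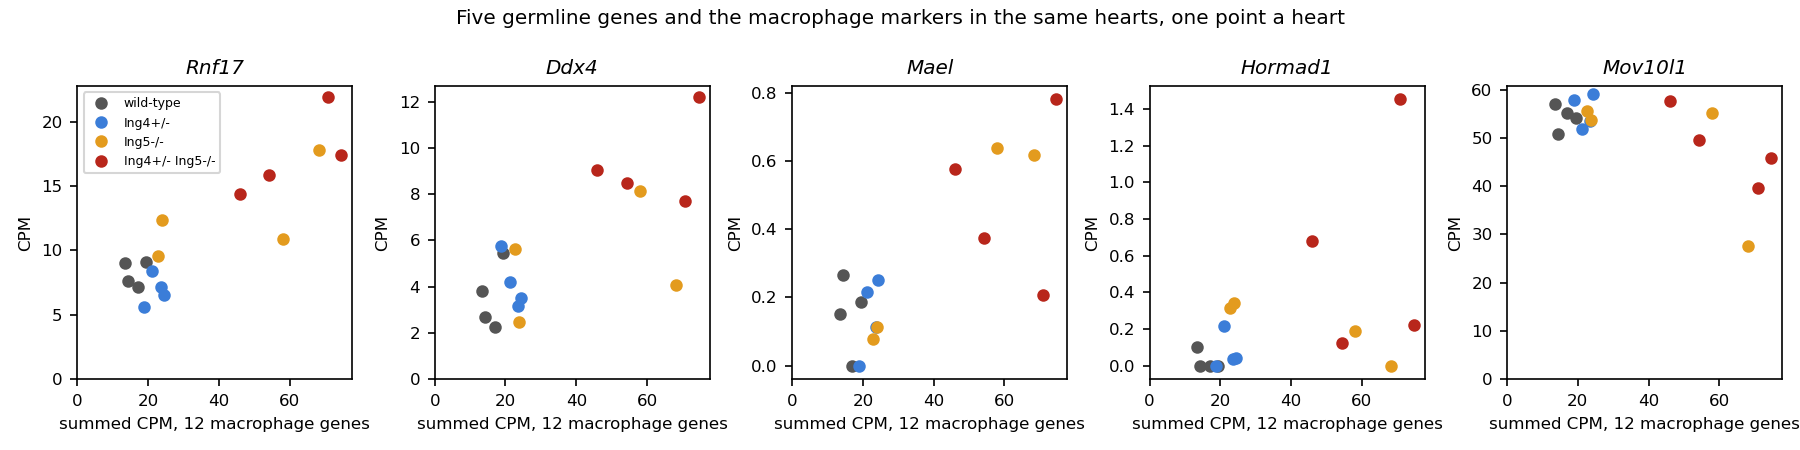
CPM of 5 germline genes against the summed CPM of 12 macrophage genes, 1 point per heart, coloured by genotype. Wild-type and Ing4+/- hearts lie at or below 24.4 CPM of the markers and Ing4+/- Ing5-/- hearts at or above 45.9, so genotype and marker sum are not separate in these groups.

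The genes whose levels were most like each member over the 16 hearts were found among 15784 other tested genes by Pearson correlation of log2 CPM. All values come from the same libraries and share their depth and genotypes. For Rnf17 the 5 highest were Ptpn6 (0.924), Inpp5d (0.905), Cd300a (0.901), Zfp598 (0.898) and Mpo (0.891). Ptpn6 and Inpp5d encode phosphatases of blood cells and Mpo the myeloperoxidase of myeloid cells. With the genotype means removed, the value was 0.774 for Ptpn6 and 0.569 for Mpo. For Mael the highest were Trem2 (0.874), a receptor of macrophages, Rab7b, Slc10a3, Csf2ra and Slc15a3 (0.854 to 0.874). Mael had only 0 to 21 reads per heart. It passed the filter only with the Ing4+/- Ing5-/- hearts, where macrophage markers were also high, so these values are a description only. For Ddx4 the highest were Pdgfb (0.879), a growth factor, Nfam1, D1Pas1, Cd300c2 and Exoc3l4 (0.821 to 0.848). D1Pas1 encodes a testis relative of the helicase DDX3X.

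The other members had different neighbours in pattern. For Mov10l1 they were Ak1 (0.954), Smyd1, Idh3a, Cap2 and Fsd2 (0.941 to 0.945), of which Smyd1 encodes a methyltransferase of heart and skeletal muscle. With the genotype means removed, the 5 values for Mov10l1 were 0.943 to 0.953. That step keeps Ing5-/- 1, the heart with the lowest Mov10l1 (27.5 CPM) and the lowest cardiac marker sum. The values were not computed without this heart, so how far they rest on it is not known. For Tdrd1 they were Plk2 (0.897), Gm2a, Sparcl1, Asph and Spry2 (0.841 to 0.876). For Tdrd9 they were Cntd1 (0.852), Ccdc106, Rap1a, Ppp6c and Mlh3 (0.797 to 0.836). For Dazl they were Zfp389 (0.771), Ostf1, Zfp366, Cks1brt and Commd1 (0.695 to 0.749). Dazl had only 0 to 14 reads per heart and also passed the filter only with the Ing4+/- Ing5-/- hearts. For Ctcfl they were Oscp1 (0.936), Rtl1, Prr33, Ccdc78 and Sspo, and without Ing5-/- 1 the value for Oscp1 was 0.918.

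The nearest genes on either side were read as well. Cenpj, a centriole protein gene 1729 bases beyond Rnf17, was at 23.7 to 33.2 CPM with a log2 fold change of -0.15 ± 0.08 in Ing4+/- Ing5-/- against wild-type (SE, adjusted p = 0.508), and Atp12a, on the other side, was at most 0.293 CPM. Slc38a9, a lysosomal amino acid transporter gene 3556 bases from Ddx4, had -0.15 ± 0.17 (SE, adjusted p = 0.800), and Il31ra, the other neighbour, was at most 0.293 CPM. Ccdc186, 3972 bases from Tdrd1, had -0.10 ± 0.09 (adjusted p = 0.711). The gene 3272 bases before Hormad1 is Ctss, the cathepsin S gene of macrophages. Ctss had 2.00, 2.32, 2.97 and 1.84 CPM in Ing4+/- Ing5-/- hearts and 0.557, 0.587, 0.0759 and 0.102 CPM in wild-type hearts (edgeR, adjusted p = 0.183). Ctss was 2.47 and 3.41 CPM in Ing5-/- hearts 1 and 2, in which Hormad1 had 0 and 6 reads. Golph3l, on the other side of Hormad1, had a log2 fold change of -0.005 ± 0.10 (SE, adjusted p = 0.994). The strand setting of the counting is not known here, so reads of overlapping genes on opposite strands may be mixed.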

How the data were processed

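Total RNA of E10.5 hearts was sequenced from stranded libraries, per the labels' protocols. The deposited values are raw read counts per gene; per the submitters' processing notes, bcl2fastq, featureCounts and the mm10 build were used, versions not given. For the aligner, the annotation and the strand setting: not given in the sources used here. Gene length deposited beside them (other) served for RPKM. Of 27179 gene IDs, 25275 matched a symbol in RefSeq (GRCm38.p6), and positions are from that table. All 16 single-sample tables equalled the series table. Pairs of libraries of a genotype differed by more than sampling noise (chi-square per degree of freedom at least 6.68).

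Counts were filtered with edgeR's filterByExpr (15785 genes kept), scaled by TMM and fitted with edgeR 4.0.16 (R 4.3.3, quasi-likelihood, 4 genotype means on all 16 libraries), with Benjamini-Hochberg adjustment over all genes tested and a threshold of 0.05. DESeq2 1.42.0 and limma 3.58.1 were alternatives. The code was checked on simulated data. The members and lists were chosen with earlier results of these data known. Named genes are the members, up to 4 called and 4 highest genes per list with examples, the 5 most correlated genes per tested member (prior count 2) and the nearest genes. Genes outside this rule (Gpat2, Piwil2, Fkbp6, Mybl1, Syce1, Tex19.1, Ctss and Golph3l among them) were named after their values were seen. Meiosin, Ankrd31 and Hbb-bt were unmatched. Hearts with equal replicate numbers deviated together in 5 of 24 pairs (correlation over 0.1; median 0.0205), and 6 of these 24 pairs share a litter by the labels, so the number was not taken as a pairing. Litter, which the labels give, was fitted as a block of its own.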

Additional observations from a re-analysis of the deposited data

Results flagged for a closer look

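In 40 groups of 4 hearts (10 genes in 4 genotypes), 3 had a heart far from the others by Dixon's test at the 95% level. Chance flags about 1 group in 20 where values are normally distributed. That rate does not hold for groups with few or no reads, such as those flagged for Sycp1 and Hormad1. Mov10l1 was lowest in Ing5-/- 1, at 27.5 CPM, where the other 3 Ing5-/- hearts had 53.8 to 55.6 CPM. Sycp1 was highest in Ing4+/- 2, at 0.253 CPM, from 7 reads, and Hormad1 was highest in wild-type 4, at 0.102 CPM, from 2 reads.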

How the results depend on the processing

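The number of members called in Ing4+/- Ing5-/- against wild-type was 1 and stayed 1 in 15 of 27 alternatives. It was 0 with litter as a block and 0 with the replicate block, and 0 to 1 when single libraries were left out. Against Ing4+/- it was 0, and 0 to 1 when single libraries were left out. In that comparison it was 1 with only the groups compared, 1 by DESeq2 and 1 with a Y-linked covariate. In each of these the member was Ddx4, and the cause of the changes was not tested. The replicate block changed no other count of members called. The remaining comparisons gave 0 in all alternatives run. A robust prior spread, chosen after seeing the data, left every count of members as it was. The interaction was not run on only the groups compared. The counts of members with reads in every heart (5) and above the olfactory receptor genes (8) held with 10 reads and with library totals. The second is for means over 16 hearts, and within single genotypes it ran from 4 in Ing4+/- to 8 in Ing4+/- Ing5-/- hearts. Across all genes, where edgeR called 133 against wild-type and 173 against Ing4+/-, DESeq2 called 325 and 486, and litter as a block gave 13 and 65. Only the groups compared gave 420 against wild-type, limma-voom 78, and leaving out the 3 libraries that stood apart 290. Leaving out single libraries gave 39 to 318 against wild-type and 67 to 419 against Ing4+/-. Hormad1 without single libraries and the list without Dazap1 were chosen after seeing the data. Low reads limit Dazl, Mael, Sycp1 and Hormad1.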
